A study of Mus musculus with 16 samples.

Results

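The gene set described here covers the uptake of long-chain fatty acids by the heart and their oxidation in mitochondria. It holds 34 named genes out of the 55492 in the deposited table, chosen by name, with no measured value in the rule. The choice was made with earlier results of these data known, so the set is not independent evidence. All 34 passed the filter on low values, a mean of at least 10 normalized counts over the 16 libraries, which left 20576 genes for testing. The genes were arranged in 7 steps. These were uptake and activation (Cd36, Fabp3, Slc27a1, Acsl1, Lpl), the carnitine shuttle (Cpt1a, Cpt1b, Cpt2, Slc25a20), control of malonyl-CoA (Mlycd, Acacb), the beta-oxidation enzymes (Acadm, Acadl, Acadvl, Acads, Hadha, Hadhb, Hadh, Echs1, Acaa2, Eci1, Eci2, Decr1), electron transfer (Etfa, Etfb, Etfdh), the thioesterases with the uncoupling protein (Acot2, Acot13, Ucp3), and the regulators (Ppara, Ppargc1a, Ppargc1b, Esrra, Esrrg).

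RNA was sequenced from the left ventricles of male C57BL/6 mice aged 8 to 12 weeks, in 6 groups. PKM2fl/fl mice, the controls, carried floxed but intact alleles of the pyruvate kinase gene Pkm, and PKM2-/- mice had lost the exon specific to the PKM2 isoform in every cell after germline excision by a CMV-driven Cre that was then bred out. Each genotype was sampled without surgery (baseline, n = 2), 3 days after sham surgery (n = 3), and 3 days after myocardial infarction by permanent ligation of the left anterior descending coronary artery (MI, n = 3). The deletion was not restricted to cardiomyocytes, and each library held the RNA of all cells of the ventricle sample.

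The heart draws most of its energy from fatty acids. They enter through CD36 and FATP1 (Slc27a1) after lipoprotein lipase (Lpl) has released them from circulating triglyceride, are carried in the cytosol by FABP3, and are activated to acyl-CoA by ACSL1. The carnitine shuttle moves the acyl groups into mitochondria in a step that malonyl-CoA inhibits at CPT1, beta-oxidation shortens them in repeated rounds, and the electrons reach the respiratory chain partly through the flavoprotein ETF. The nuclear receptor PPARα, the estrogen-related receptors and the PGC-1 coactivators drive transcription of many of these genes in cardiomyocytes.

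Libraries held 20623769 to 71855101 reads. Pkm, counted over the whole gene, ran from 7779 to 12076 normalized counts in PKM2fl/fl hearts and from 10120.2 to 16113 in PKM2-/- hearts, and a whole-gene count cannot show the loss of the excised exon. Among the PKM2fl/fl libraries after infarction, MI 3 stood apart from MI 1 and 2. It was the lowest of the 3 PKM2fl/fl MI libraries in 33 of the 34 fatty acid genes. It was the lowest of all 6 MI libraries in 24. Results that rest on it are given below with and without it. Relative to sham, the median fatty acid gene stood at -2.30 (log2) in MI 3 and at -1.26 and -1.21 in MI 1 and 2. In the PKM2-/- MI libraries it stood at -1.85, -2.10 and -2.05, nearer to MI 3. PKM2fl/fl MI 1 and 2 were the highest pair of the 6 in 32 of the 34 genes. The 34 genes moved together with cardiomyocyte markers, as given below, so these are not 34 separate observations. The same counts over all genes are not given here. Cardiomyocyte markers were present in every library, with the 14 listed genes summing to 1402455 to 1821592 normalized counts at baseline and after sham.

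In the sham hearts the transcripts spanned 196-fold when expressed per kilobase of exon, which is the scale used to compare genes with each other. Fabp3 was the most abundant, with a sham mean of 36669 normalized counts per kilobase and a range over the 6 hearts of 29238 to 46478. Lpl followed at 16609 and Cd36 at 10606, and the ranges of these 3 did not overlap with each other. Hadhb, Acadm and Etfb came next at 8257, 7709 and 7099, with overlapping ranges. The top 3 places were thus held by genes that bring fatty acids to the cell and carry them in it. Cpt1b, the muscle form of carnitine palmitoyltransferase 1, stood at 2819 per kilobase, and Cpt1a, the form that dominates in liver, at 221, with only Ucp3 lower at 187. Among the regulators the order of Ppargc1a and Esrra was not settled, since Ppargc1a ranged from 849 to 3339 per kilobase over the 6 sham hearts and Esrra from 949.7 to 1047. Ppara and Ppargc1b had means close together at 650.4 and 638.

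PPARα with its partner RXR, and the estrogen-related receptors, bind DNA through the hexamer AGGTCA, so the members' promoters were searched for it on both strands over the 250 bases before the annotated start. Of the 34 genes, 28 matched the RefSeq promoter table (assembly GRCm38.p6, the build known as mm10), and Lpl, Cpt1b, Decr1, Acot13, Acaa2 and Ppargc1b had no entry. The hexamer was found in 6 members, which came to 17.6% of the members' promoter windows, beside 14.02% of all 32851 promoters in the table. The longer form bound by estrogen-related receptors, TCA joined to the front of the hexamer, was found in 0 members and in 0.387% of all promoters, and 2 copies of AGGNCA spaced by 1 base, as PPAR and RXR pairs bind them, in 0 members and in 0.338%. Of the 6 promoters, 3 are shown because their genes moved in opposite directions after infarction, as described below, Cpt1a as the only member that rose and Acadvl and Acadm as 2 of the beta-oxidation genes that fell. Each runs from 250 to 41 bases before the start, 5′ to 3′ on the strand of the gene, with the hexamer or its reverse complement in capitals.
Cpt1a (chr19:3323051-3323260, forward strand): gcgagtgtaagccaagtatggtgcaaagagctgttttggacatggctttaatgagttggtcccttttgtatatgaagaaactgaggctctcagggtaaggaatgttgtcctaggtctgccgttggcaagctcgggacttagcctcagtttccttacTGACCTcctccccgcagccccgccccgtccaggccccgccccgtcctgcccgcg
Acadvl (chr11:70015469-70015678, reverse strand): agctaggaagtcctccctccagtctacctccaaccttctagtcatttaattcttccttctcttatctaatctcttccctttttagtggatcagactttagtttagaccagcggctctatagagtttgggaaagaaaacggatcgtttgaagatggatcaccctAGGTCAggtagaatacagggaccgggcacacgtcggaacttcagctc
Acadm (chr3:153944684-153944893, reverse strand): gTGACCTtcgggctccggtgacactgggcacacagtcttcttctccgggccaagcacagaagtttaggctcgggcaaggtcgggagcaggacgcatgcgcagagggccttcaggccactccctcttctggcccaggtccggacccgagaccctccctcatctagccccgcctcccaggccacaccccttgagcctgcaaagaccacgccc
A match is a string of letters and says nothing about binding, and whether the hexamer has a part in these changes was not tested.

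To ask how the injured ventricle differed, MI hearts were compared with sham hearts over both genotypes. Nearly the whole pathway was lower after infarction, and in bulk tissue fewer cardiomyocytes and less of a transcript per cell cannot be told apart. Of the 34 genes, 33 fell and 1, Cpt1a, rose (limma on log2 normalized counts, adjusted p under 0.05 over all genes tested), and all 33 that fell did so by at least 2-fold. These 34 calls kept their direction under the other scalings and tests tried, except when libraries were scaled to cardiomyocyte markers, as given below. Over all genes tested, 32.7% passed lower, 13.2% passed lower by at least 2-fold and 32.9% passed higher. The median log2 fold change of the 34 was -1.85, a 3.61-fold lower level, beside 0.01 over all genes. Fold changes ran from -2.32 for Ppargc1a to 0.44 for Cpt1a. Every one of the 6 MI hearts lay below every one of the 6 sham hearts in 32 genes, a pattern that 20.2% of all genes showed. Every MI heart lay above every sham heart for Cpt1a, as for 20.8% of all genes, and the groups overlapped for Ucp3.

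**Figure D1:**
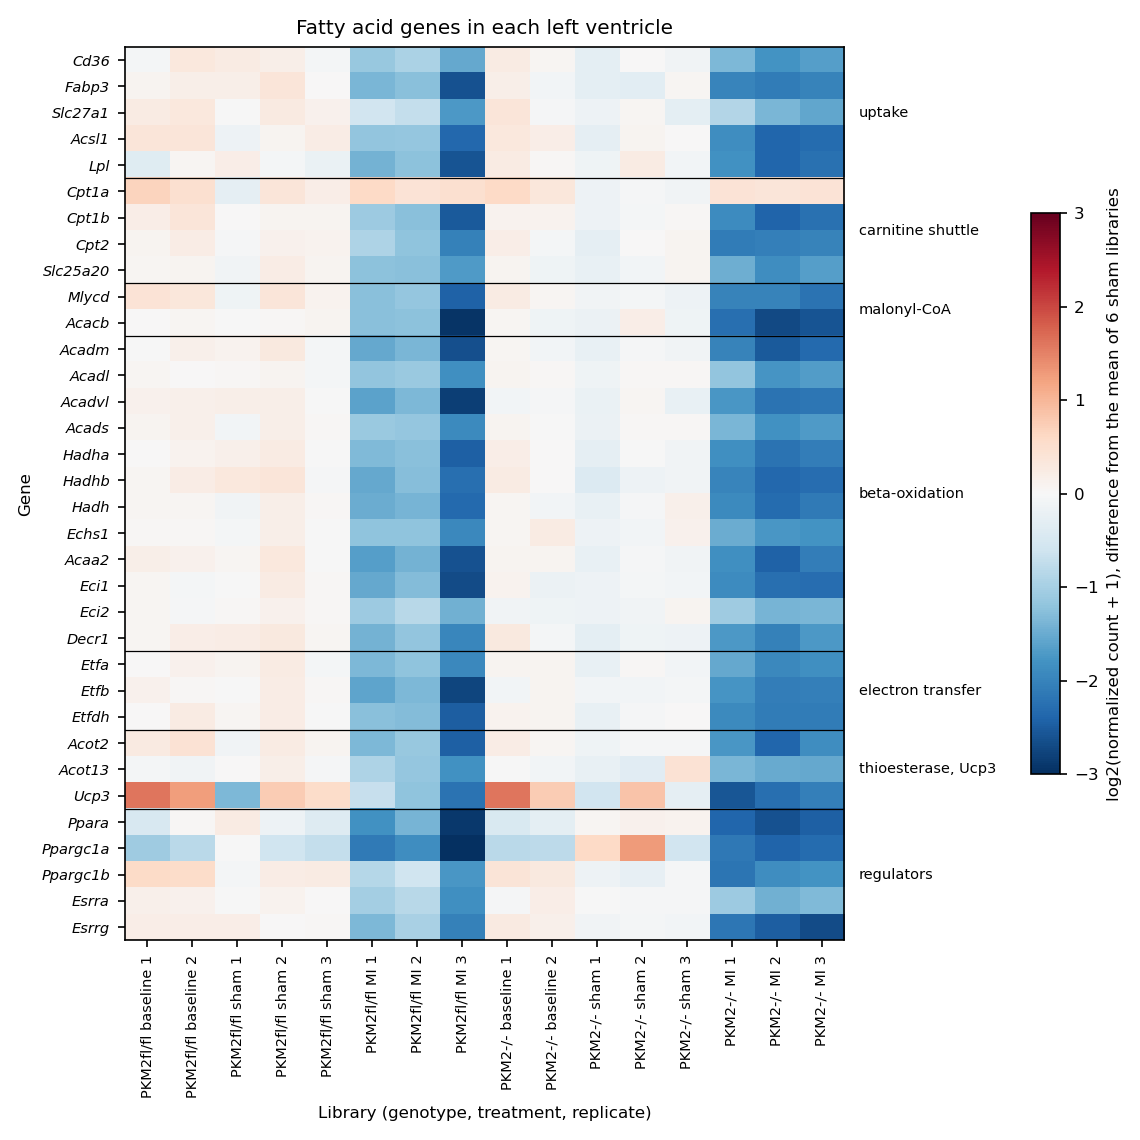
Level of each of the 34 fatty acid genes (rows, grouped by step) in each of the 16 left ventricle libraries (columns), as log2(normalized count + 1) minus the mean of the 6 sham libraries, with red higher and blue lower. The 6 MI libraries are blue in nearly every row except Cpt1a, PKM2fl/fl MI 3 is the darkest of the PKM2fl/fl MI libraries, and the 10 libraries without infarction are close to white apart from Cpt1a, Ucp3, Ppargc1a and a few other entries.

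All 5 uptake and activation genes fell, with a median log2 fold change of -1.87. Cd36 stood at 43863, 41890.0 and 35275 normalized counts in the PKM2fl/fl sham hearts and at 16659, 18998 and 12689 in the PKM2fl/fl MI hearts, and at 30179, 37438 and 34392 in the PKM2-/- sham hearts and 14438, 10714 and 11709 in the PKM2-/- MI hearts. The sham and MI ranges of this fatty acid transporter were separate in both genotypes, with a 2.65-fold lower level after MI (log2 fold change -1.41, SE 0.13, adjusted p = 1.50e-07). Lpl stood at 78336, 65298 and 59326 normalized counts in the PKM2fl/fl sham hearts and at 25577, 29158 and 11236 in the PKM2fl/fl MI hearts, and at 62391, 81087 and 63639 in the PKM2-/- sham hearts and 19316, 13071 and 14426 in the PKM2-/- MI hearts. Lipoprotein lipase was 3.84-fold lower (log2 fold change -1.94, SE 0.21, adjusted p = 8.09e-07), and PKM2fl/fl MI 3 lay below the other PKM2fl/fl MI hearts. Fabp3 ran from 24063 to 38251 normalized counts over the 6 sham hearts and from 4858 to 12413 over the 6 MI hearts, a log2 fold change of -1.89 for the cytosolic fatty acid carrier. Acsl1 ran from 10358 to 14719.9 normalized counts over the 6 sham hearts and from 2415 to 5649.6 over the 6 MI hearts, a log2 fold change of -1.87 for the main cardiac acyl-CoA synthetase. The smallest fall of all 33 was that of Slc27a1, which encodes the transport protein FATP1 (1884 to 2758 in sham and 697 to 1546 after MI, log2 fold change -1.14, SE 0.17, adjusted p = 2.48e-05).

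The carnitine shuttle split at its entry step. Cpt1b stood at 8674, 9129 and 9044 normalized counts in the PKM2fl/fl sham hearts and at 4007, 3580.3 and 1489.8 in the PKM2fl/fl MI hearts, and at 7779, 8211 and 8814 in the PKM2-/- sham hearts and 2335, 1636 and 1809 in the PKM2-/- MI hearts. The muscle form, which carries most of the activity in heart, was 3.74-fold lower after MI (log2 fold change -1.90, SE 0.18, adjusted p = 2.72e-07). Cpt1a stood at 1199.7, 1844 and 1668 normalized counts in the PKM2fl/fl sham hearts and at 2169, 1915 and 2018 in the PKM2fl/fl MI hearts, and at 1299, 1408 and 1344 in the PKM2-/- sham hearts and 1917, 1853 and 1917 in the PKM2-/- MI hearts. Cpt1a was 1.36-fold higher after MI (log2 fold change 0.44, SE 0.09, adjusted p = 5.48e-04, 95% interval 0.25 to 0.64), and its rise passed in each genotype alone, at 0.39 in PKM2fl/fl (adjusted p = 0.0191) and 0.49 in PKM2-/- (adjusted p = 0.00454). In PKM2fl/fl that call was lost under total count scaling, when the groups compared were fitted alone, and without PKM2fl/fl sham 1 or MI 1. The MI values lay within the range of the unoperated hearts, which were 2287 and 2024 in PKM2fl/fl and 2183 and 1839.9 in PKM2-/-. Cpt2, the enzyme of the inner membrane that rebuilds acyl-CoA, and Slc25a20, the carnitine-acylcarnitine translocase between them, fell like Cpt1b. Cpt2 ran from 2374 to 3108 normalized counts over the 6 sham hearts and from 669.6 to 1489 over the 6 MI hearts (log2 fold change -1.72, SE 0.14, adjusted p = 4.82e-08). Slc25a20 ran from 2059 to 2801 normalized counts over the 6 sham hearts and from 659 to 1025 over the 6 MI hearts (log2 fold change -1.52, SE 0.10, adjusted p = 7.57e-09).

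Per kilobase of exon, Cpt1a made up 7.48% ± 1.31 (SD, n = 3) of the Cpt1a and Cpt1b transcripts together in PKM2fl/fl sham hearts and 7.04% ± 0.397 (SD, n = 3) in PKM2-/- sham hearts. At baseline the share was 9.73% and 7.87% in PKM2fl/fl and 9.83% and 8.44% in PKM2-/-. After MI the share was 20.0%, 19.9% and 38.6% in PKM2fl/fl and 27.6%, 34.4% and 32.9% in PKM2-/-. The part of cell composition in this difference was not tested. Cpt1b remained the more abundant form in every heart, from 10.7 to 15.6 times Cpt1a in sham hearts and from 1.59 to 4.04 times after MI.

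**Figure D2:**
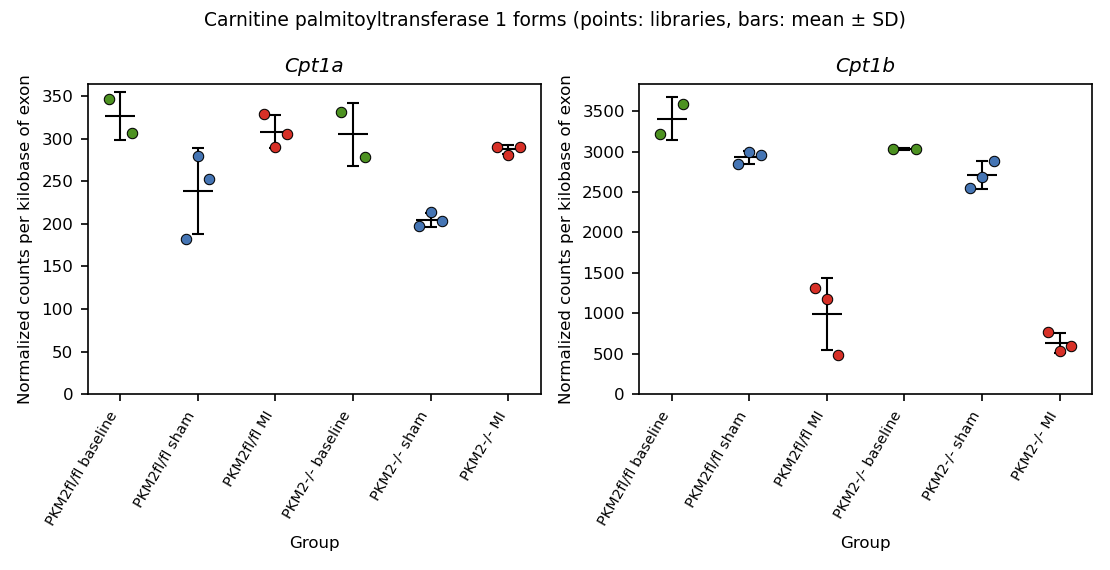
Normalized counts per kilobase of exon (vertical axes, starting at 0 and differing between panels) of Cpt1a and Cpt1b in the 6 groups, with 1 point per heart and bars at the mean ± SD. Cpt1a was lowest in sham hearts, with MI hearts near the baseline level, and Cpt1b was lower in all 6 MI hearts than in any other heart.

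Both genes that set malonyl-CoA fell, although they act in opposite ways. Acacb makes malonyl-CoA at the mitochondrial surface and so restrains CPT1, while Mlycd removes it. Acacb stood at 9214, 9504 and 9912 normalized counts in the PKM2fl/fl sham hearts and at 3905, 4002 and 1212 in the PKM2fl/fl MI hearts, and at 8309.9, 10749 and 8483 in the PKM2-/- sham hearts and 1949, 1428 and 1558 in the PKM2-/- MI hearts. Acacb was 4.47-fold lower (log2 fold change -2.16, SE 0.22, adjusted p = 5.95e-07), and among the MI hearts PKM2fl/fl 1 and 2 were the highest. Mlycd ran from 1333 to 1906 normalized counts over the 6 sham hearts and from 276 to 658 over the 6 MI hearts (log2 fold change -1.84, SE 0.17, adjusted p = 1.50e-07).

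All 12 beta-oxidation genes fell, with a median log2 fold change of -1.89. The 4 acyl-CoA dehydrogenases, which open each round for chains of different length, differed in size of change. Acadm stood at 17044, 19264 and 15162 normalized counts in the PKM2fl/fl sham hearts and at 5439.7, 6099 and 2519 in the PKM2fl/fl MI hearts, and at 13517, 15451 and 14754 in the PKM2-/- sham hearts and 3954, 2758 and 3126 in the PKM2-/- MI hearts. The medium-chain enzyme showed the largest fall of the 12 (log2 fold change -2.07, SE 0.17, adjusted p = 7.26e-08). Acadvl stood at 14633, 14679 and 12709 normalized counts in the PKM2fl/fl sham hearts and at 4240.1, 5106 and 1816 in the PKM2fl/fl MI hearts, and at 11302, 13475 and 11080.0 in the PKM2-/- sham hearts and 3855, 2772 and 2869 in the PKM2-/- MI hearts. The very-long-chain enzyme fell 3.95-fold (log2 fold change -1.98, SE 0.19, adjusted p = 2.48e-07). Falls were smaller for Acadl, the long-chain enzyme (log2 fold change -1.46, SE 0.12, adjusted p = 7.29e-08), and Acads, the short-chain enzyme (log2 fold change -1.51, SE 0.12, adjusted p = 6.22e-08), which ran from 1757 to 2252 normalized counts over the sham hearts and from 527 to 927 over the MI hearts.

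Hadha and Hadhb encode the alpha and beta subunits of the mitochondrial trifunctional protein, which completes the round for long chains. They lie head to head on chr5, with Hadha on the reverse strand and Hadhb on the forward strand and 272 bases between the annotated starts. Hadha stood at 22168, 23840.2 and 19751 normalized counts in the PKM2fl/fl sham hearts and at 7959, 8375 and 3656 in the PKM2fl/fl MI hearts, and at 16612, 19896 and 18477 in the PKM2-/- sham hearts and 5538, 4330.1 and 4728 in the PKM2-/- MI hearts. Hadhb stood at 20465, 21259 and 16229.8 normalized counts in the PKM2fl/fl sham hearts and at 5739.6, 6799 and 3435 in the PKM2fl/fl MI hearts, and at 12480.1, 14946 and 15346 in the PKM2-/- sham hearts and 4168, 3215 and 3389 in the PKM2-/- MI hearts. The log2 fold changes of this pair of subunits were -1.86 (95% interval -2.21 to -1.51) and -1.95 (95% interval -2.26 to -1.64). Hadh, Echs1 and Acaa2, which take over for shorter chains, changed by -1.93, -1.56 and -2.01. The auxiliary enzymes for unsaturated fatty acids changed by -1.99 (Eci1), -1.67 (Decr1) and -1.20 (Eci2), and Eci2 had the smallest fall of the 12. Reads of Eci2 may be shared with its near copy Eci3, since the treatment of reads that map to several places was not given in the sources used here.

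The 3 electron transfer genes fell together, with log2 fold changes of -1.63 for Etfa and -1.93 for Etfb, the ETF subunits, and -1.86 for Etfdh, which passes the electrons to ubiquinone. Etfb ran from 5943 to 7365 normalized counts over the 6 sham hearts and from 931 to 2475 over the 6 MI hearts. Acot2 and Acot13, thioesterases that split acyl-CoA, changed by -1.82 and -1.39, and Acot2 may share reads with its neighbour Acot1. Ucp3, an inner membrane carrier induced by fatty acids, had the widest interval of the 34. Ucp3 stood at 182, 789 and 685 normalized counts in the PKM2fl/fl sham hearts and at 289, 200.4 and 99.7 in the PKM2fl/fl MI hearts, and at 310.3, 846 and 388 in the PKM2-/- sham hearts and 77.8, 96.5 and 111 in the PKM2-/- MI hearts. The 2 genotypes' sham and MI values overlapped when pooled, through the low value of PKM2fl/fl sham 1, and the fall still passed the test (log2 fold change -1.83, SE 0.36, adjusted p = 3.30e-04). In PKM2fl/fl alone it was the weakest of the 34 (log2 fold change -1.36, adjusted p = 0.0355), and it did not pass there without PKM2fl/fl MI 3 (adjusted p = 0.16).

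Among the regulators, Ppargc1a and Ppara had the lowest fold changes of the set over both genotypes together. In PKM2fl/fl hearts alone the lowest was that of Acadvl (-2.04), with Ppara at -1.95 and Ppargc1a at -1.92. Ppargc1a stood at 8879, 5952 and 5487 normalized counts in the PKM2fl/fl sham hearts and at 2061, 2470.1 and 1044 in the PKM2fl/fl MI hearts, and at 13536, 21585 and 6038 in the PKM2-/- sham hearts and 2006, 1702 and 1799 in the PKM2-/- MI hearts. The coactivator PGC-1α was 5-fold lower after MI (log2 fold change -2.32, SE 0.26, adjusted p = 1.27e-06). Its SE was the largest of the regulators, and PKM2-/- sham 2 was the highest of all 16 hearts. At baseline Ppargc1a stood at 4261 and 5125 in PKM2fl/fl and at 5098 and 5206 in PKM2-/-, below all 6 sham hearts. The size of its fall is thus relative to these sham levels, and MI was not tested against baseline. Ppara stood at 2693, 2072 and 1759 normalized counts in the PKM2fl/fl sham hearts and at 646, 865 and 306 in the PKM2fl/fl MI hearts, and at 2383, 2509 and 2441 in the PKM2-/- sham hearts and 439, 373 and 419.8 in the PKM2-/- MI hearts. The fatty acid receptor PPARα was 4.79-fold lower (log2 fold change -2.26, SE 0.19, adjusted p = 8.45e-08), and PKM2fl/fl MI 3 had the lowest value of all hearts. Esrrg stood at 5424, 4731 and 4856 normalized counts in the PKM2fl/fl sham hearts and at 1859.6, 2381 and 1162 in the PKM2fl/fl MI hearts, and at 4337, 4483 and 4470.4 in the PKM2-/- sham hearts and 1051, 852 and 726 in the PKM2-/- MI hearts. Ppargc1b stood at 2389, 2901 and 2928 normalized counts in the PKM2fl/fl sham hearts and at 1362, 1642 and 739.9 in the PKM2fl/fl MI hearts, and at 2238, 2071 and 2406 in the PKM2-/- sham hearts and 539.9, 674 and 714 in the PKM2-/- MI hearts. For these, the receptor ERRγ and the coactivator PGC-1β, every PKM2-/- MI heart lay below every PKM2fl/fl MI heart, and log2 fold changes for MI were -1.94 (SE 0.14) and -1.51 (SE 0.15). Esrra, which encodes ERRα, fell less, by 1.25 on the log2 scale (adjusted p = 6.48e-07), and ran from 2144 to 2365 normalized counts over the sham hearts and from 618 to 1246 over the MI hearts.

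Within each genotype the counts were the same, 33 lower and 1 higher. In PKM2fl/fl hearts the median log2 fold change was -1.70, with 25.3% of all genes lower and 24.8% higher. In PKM2-/- hearts it was -1.93, with 28.1% lower and 28.7% higher. Without PKM2fl/fl MI 3 the PKM2fl/fl median was -1.30, with 32 genes lower and Cpt1a still higher. The share of all genes for that fit is not given here. With any 1 library left out, 4453 to 5256 of the 20576 genes passed lower in PKM2fl/fl and 4456 to 5167 higher.

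**Figure D3:**
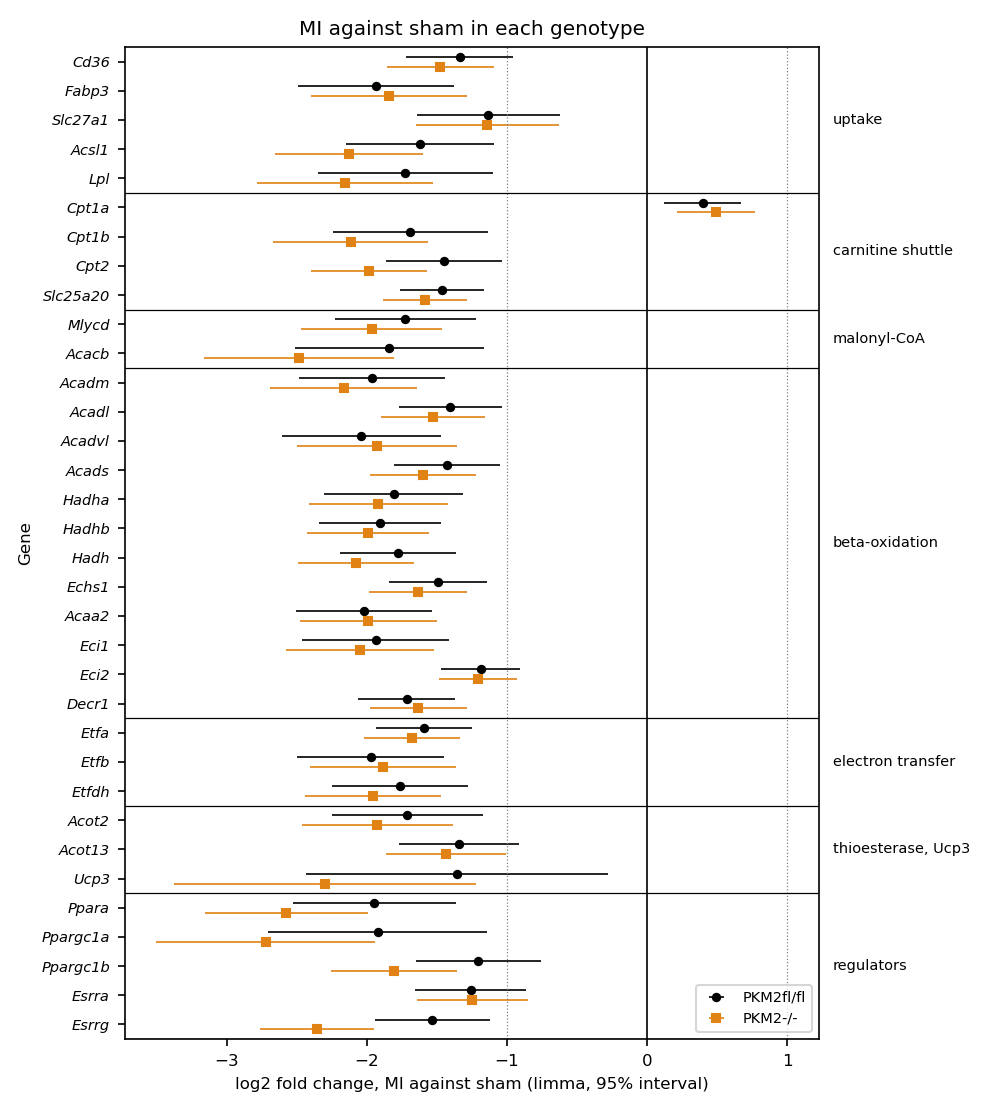
log2 fold change of MI against sham (horizontal axis, with 95% intervals from limma) for each of the 34 genes (rows, grouped by step) in PKM2fl/fl (black circles) and PKM2-/- hearts (orange squares), with dotted lines at a 2-fold change. Cpt1a is the only gene to the right of 0 in either genotype, and the intervals of the 2 genotypes overlap for all genes but Esrrg, where they just miss each other.

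Cardiomyocyte markers moved with the fatty acid genes. The 14 markers (among them Myh6, Tnnt2, Ryr2 and Mb) were all lower after MI than after sham. Their median log2 fold change was -1.85, the same to 2 decimals as that of the fatty acid genes. Their summed level was 1402455 to 1821592 normalized counts in the baseline and sham hearts and 327667 to 711491 in the MI hearts. Of the 10 leukocyte markers 8 rose (median 1.80), of the 8 fibroblast markers 6 rose and 1 fell (median 1.69), and the 4 proliferation markers rose (median 3.83). Endothelial markers were split, with 2 of 8 higher and 2 lower, 0 of 5 erythroid markers passed, and the 6 white adipocyte markers summed to at most 186 normalized counts in any heart. Relative to the sham mean, the median fatty acid gene stood at -1.26, -1.21 and -2.30 (log2) in PKM2fl/fl MI 1 to 3 and at -1.85, -2.10 and -2.05 in PKM2-/- MI 1 to 3, and the median cardiomyocyte marker at -1.28, -1.23 and -2.46 and at -1.85, -2.19 and -2.25. The 6 hearts stood in the same order on both measures except that PKM2-/- MI 2 and 3 changed places.

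**Figure D4:**
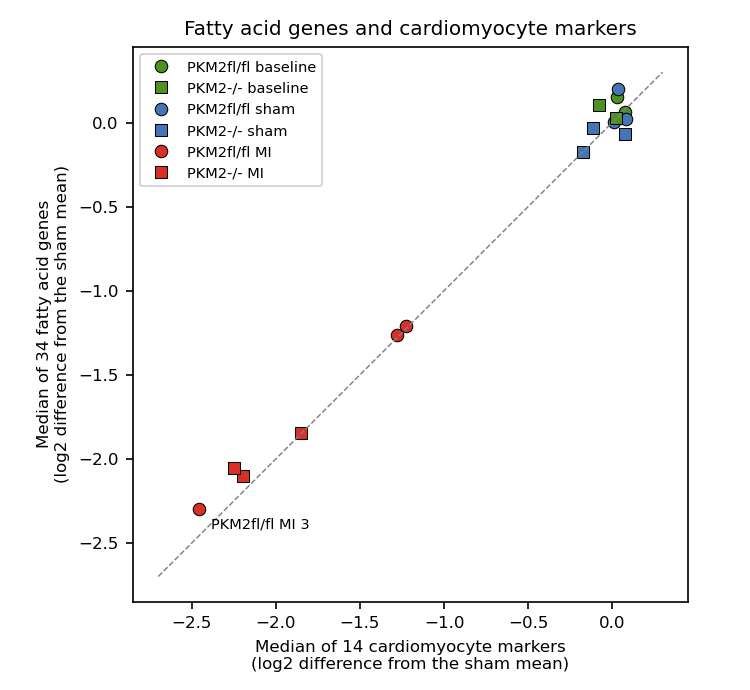
Median of the 34 fatty acid genes (vertical axis) against the median of the 14 cardiomyocyte markers (horizontal axis) in each of the 16 hearts, both as log2 difference from the mean of the 6 sham hearts, with the dashed line at equal values. The 10 hearts without infarction cluster near 0 and the 6 MI hearts lie close to the line, from -1.21 in PKM2fl/fl MI 2 to -2.30 in PKM2fl/fl MI 3 on the vertical axis.

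When every library was instead scaled to its cardiomyocyte markers, the median log2 fold change of the fatty acid genes after MI was -0.02, while the median of all genes shifted to 1.83. On this scale 7 members were higher and 2 lower, beside 91.1% of all genes higher and 0.792% lower. The members higher were Cpt1a (2.27), Slc27a1 (0.69), Eci2 (0.63), Esrra (0.57), Acot13 (0.44), Cd36 (0.42) and Acadl (0.36). The members lower were Ppara (-0.43, adjusted p = 0.0215) and Acacb (-0.33, adjusted p = 0.0401), and Ppargc1a was at -0.49 (adjusted p = 0.0551). The remaining 25 members did not pass in either direction relative to these markers. In PKM2fl/fl alone 2 members were higher and 0 lower, beside 85.2% and 0.34% of all genes, and in PKM2-/- 7 were higher and 3 lower, beside 88% and 0.768%.

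Genes of neighbouring lipid routes were counted in the same comparison. Listed numbers are of gene symbols, among them the older names Mut (Mmut), Acbp (Dbi) and Hadhsc (the member Hadh), which were not tested. Of 17 symbols listed for other mitochondrial oxidation genes 14 were tested, of which 13 fell and 1 rose (median log2 fold change -1.35). Among those that fell was Mmut (-1.60), which acts in the breakdown of odd-chain fatty acids. Of 15 peroxisomal oxidation genes 14 were tested, of which 10 fell and 1 rose (median -0.42), and Scp2, which encodes a peroxisomal thiolase and sterol carrier, went from between 2809 and 3917 normalized counts in sham hearts to between 1235 and 1836 after MI. Of 17 lipid droplet genes, all tested, 13 fell and 2 rose (median -1.04). Plin2, which coats lipid droplets, was among the 2 that rose, from between 889 and 1292 normalized counts in sham hearts to between 2816 and 4787 after MI, whereas Dgat2, which makes triglyceride, changed by -2.10. Of 14 symbols listed for other uptake and activation genes 12 were tested, of which 5 rose and 6 fell (median -0.12). Fabp5, a fatty acid carrier found outside muscle, went from between 294 and 413 normalized counts in sham hearts to between 1078 and 2055 after MI, and Vldlr, the very-low-density lipoprotein receptor, changed by -2.08. Of 8 other carnitine and malonyl-CoA genes 7 were tested, of which 2 rose and 3 fell (median -0.01), with Acaca, the cytosolic partner of Acacb, at 0.74 and Crat, carnitine acetyltransferase, at -1.61. Of 25 partners and targets of the regulators 24 were tested, of which 19 fell and 3 rose (median -0.72), and Klf15 (-2.34) and Perm1 (-2.25) had falls close to that of Ppara.

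PKM2-/- hearts were compared with PKM2fl/fl hearts to ask whether loss of PKM2 alters the pathway. At baseline 0 of the 34 genes passed in limma, and 0 had an unadjusted p under 0.05, with a median log2 fold change of -0.08 and a range of -0.25 (Ucp3) to 0.30 (Lpl), beside 0.00972% of all genes passing. After sham 0 passed (2 unadjusted), with a median of -0.15 and again 0.00972% of all genes passing. Those 2 were Decr1 (-0.39, adjusted p = 0.437) and Ppargc1a (0.87, 95% interval 0.09 to 1.65, adjusted p = 0.438). Over all treatments 0 passed (5 unadjusted, and 1 by DESeq2), with a median of -0.18 and 33 of 34 genes below 0, beside 0.102% of all genes passing and a median of -0.0079 over all genes. The members moved together, so 33 of 34 below 0 is not a count of separate observations. The unadjusted and DESeq2 counts have no share of all genes beside them. The lowest in that comparison was Ppargc1b at -0.47 (adjusted p = 0.176). The share of reads from rRNA-related genes was 17.4% and 22.3% in the PKM2fl/fl baseline hearts and 44.8% and 40.8% in the PKM2-/- ones. Under total count scaling, which counts those reads, the baseline median of the members was -0.67 and that of all genes -0.59. At n of 2 or 3 per group, these tests leave differences of the size of their intervals undetected.

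After MI, Esrrg was the only member that passed between the genotypes, 1.99-fold lower in PKM2-/- hearts (log2 fold change -0.99, SE 0.19, adjusted p = 0.0319, 95% interval -1.40 to -0.59), beside 0.573% of all genes lower and 0.394% higher. Its 3 PKM2-/- values (1051, 852 and 726) lay below its 3 PKM2fl/fl values (1859.6, 2381 and 1162). Ppargc1b was at -0.89 (adjusted p = 0.057) and Cpt2 at -0.66 (adjusted p = 0.106). Ppargc1b was the only other member whose groups did not overlap. Of all genes, 8.26% had every PKM2-/- heart below every PKM2fl/fl heart, beside 2 of the 34 members. The median of the 34 was -0.33, that of the 14 cardiomyocyte markers -0.38 and that of the 10 leukocyte markers 0.22, and 0 of these markers passed. The Esrrg call was lost when libraries were scaled to cardiomyocyte markers (-0.58, adjusted p = 0.264), under total count scaling (adjusted p = 0.369) and the same without rRNA-related loci (adjusted p = 0.0651), when the groups compared were fitted alone (adjusted p = 0.205), and when any of the 6 MI hearts but PKM2fl/fl MI 3 was left out.

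The size of this genotype difference moved with single libraries, from a median of -0.69 without PKM2fl/fl MI 3 to -0.14 without PKM2fl/fl MI 2, and 0 members passed when any 1 of the other 5 MI hearts was left out. PKM2fl/fl MI 1 and 2 were the highest pair of the 6 MI hearts in 32 of the 34 genes, and MI 3 was the lowest of the 6 in 24. PKM2fl/fl MI 1 and 2 also had the highest summed cardiomyocyte markers of the 6, so these genes are not separate observations. Without PKM2fl/fl MI 3, 27 members passed lower in PKM2-/- hearts after MI, with a median of -0.69, beside 7.64% of all genes lower, and 11 of 14 cardiomyocyte markers passed lower too (median -0.85). The largest of these were Esrrg (-1.28), Acacb (-1.28), Ppargc1b (-1.23), Acsl1 (-1.01), Cpt1b (-0.99) and Cpt2 (-0.97). Over all treatments 16 members then passed lower (median -0.31), beside 2.33% of all genes. PKM2fl/fl MI 3 was singled out by its low values in these same genes. It was the lowest PKM2fl/fl MI heart in 33 of the 34, so leaving it out was bound to raise the PKM2fl/fl mean. These counts are therefore not separate support for a genotype difference. PKM2fl/fl MI 3 held 46413995 reads, within the range of the others, and nothing in its labels sets it apart. Its share of reads from rRNA-related genes was 47.6%, beside 48.3% and 20.2% in PKM2fl/fl MI 1 and 2 and 16.4% to 36.4% in the PKM2-/- MI hearts. Of all 16 hearts it had the lowest summed cardiomyocyte markers (327667) and the highest median of leukocyte markers relative to sham (2.19, log2). The part of these in the genotype difference was not tested.

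The change from sham to MI was then compared directly between genotypes. In this interaction 0 genes passed, 0% of those tested (1703 at an unadjusted p under 0.05), and 0 members passed (1 unadjusted). That member was Esrrg, whose fall after MI was larger in PKM2-/- hearts, with a difference of -0.82 on the log2 scale (95% interval -1.40 to -0.24, adjusted p = 0.499). The median of the 34 was -0.14, beside -0.0081 over all genes, with 27 below 0 and a range of -0.94 (Ucp3) to 0.11 (Acadvl). These 27 are not separate observations either, and the share of all genes below 0 is not given here. Without PKM2fl/fl MI 3, 7 members passed with a larger fall in PKM2-/- hearts, beside 1.97% of all genes, namely Acacb (-1.21), Esrrg (-1.11), Ppara (-1.06), Ppargc1b (-0.94), Acsl1 (-0.90), Cpt1b (-0.88) and Cpt2 (-0.85), together with 1 of the 14 cardiomyocyte markers. As above, that library was singled out by its low values in these same genes, so these 7 are not separate support. The median of the 34 was -0.47 without that library and -0.0083 without PKM2fl/fl MI 2, the ends of its range when 1 library was left out at a time. Under total count scaling the members' interaction median turned to 0.55 while that of all genes shifted to 0.67, in libraries whose share of reads from rRNA-related genes ranged from 15.9% to 48.3%.

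**Figure D5:**
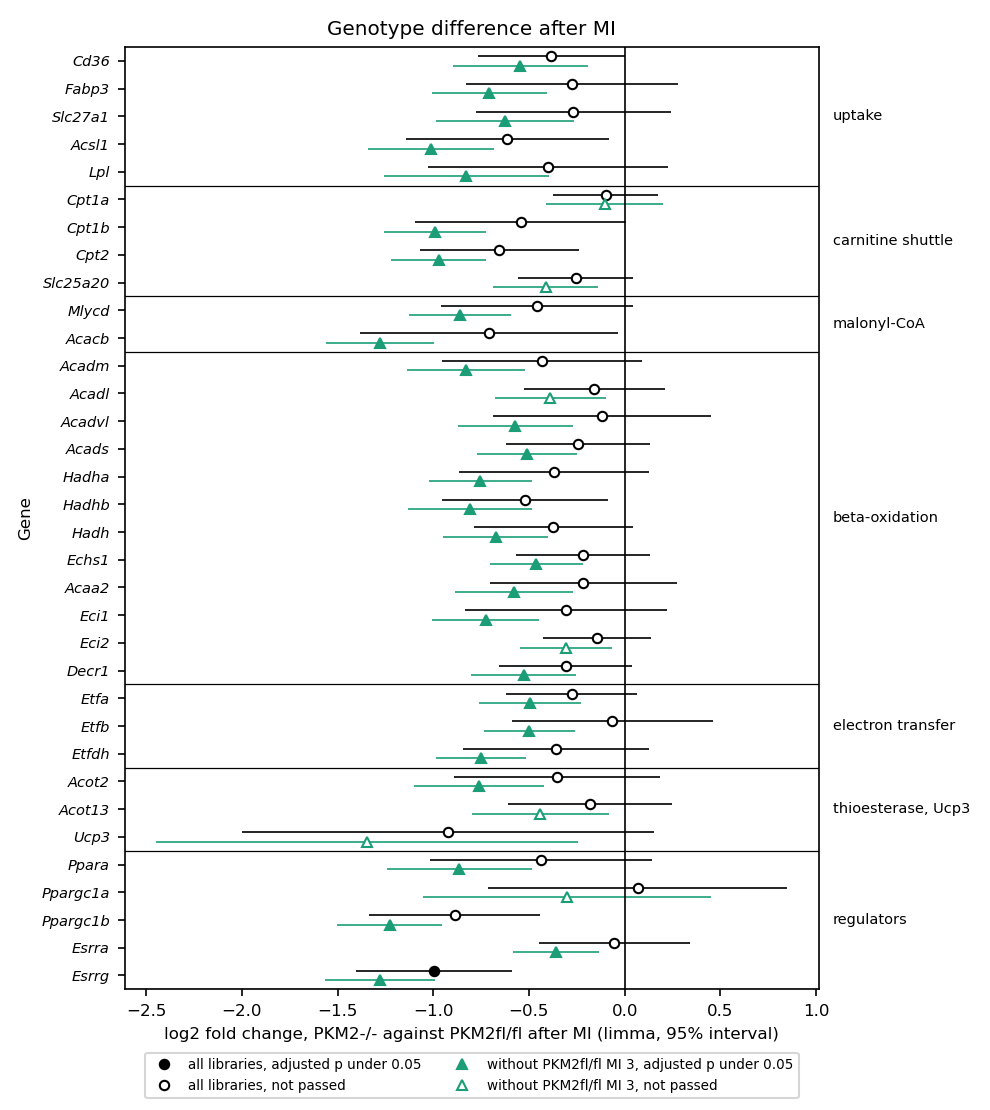
log2 fold change of PKM2-/- against PKM2fl/fl after MI (horizontal axis, with 95% intervals from limma) for each of the 34 genes (rows, grouped by step), from all libraries (black circles) and without PKM2fl/fl MI 3 (green triangles), filled where the adjusted p was under 0.05. With all libraries only Esrrg is filled, and without that library 27 genes are, all to the left of 0.

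Sham surgery was compared with the unoperated state to see what the operation alone did by day 3. Only Cpt1a passed over both genotypes, and it fell (log2 fold change -0.52, SE 0.10, adjusted p = 0.00671), beside 2.02% of all genes lower. Cpt1a stood at 2287 and 2024 normalized counts at baseline and 1199.7, 1844 and 1668 after sham in PKM2fl/fl, and at 2183 and 1839.9 and 1299, 1408 and 1344 in PKM2-/-. The operated hearts were all below the unoperated ones except PKM2fl/fl sham 2, which lay above 1 of the 4 baseline hearts. In PKM2-/- alone it also passed (log2 fold change -0.57, SE 0.14, adjusted p = 0.0344), beside 1.66% of all genes lower, and in PKM2fl/fl alone it did not (log2 fold change -0.48, SE 0.14, adjusted p = 0.232), where 0 members and 0.19% of all genes passed. The PKM2-/- call was lost without any one of the 5 PKM2-/- baseline and sham hearts and without PKM2-/- MI 2 (adjusted p up to 0.278). It was also lost with the replicate block, with no filter on low values, under total count scaling with or without rRNA-related loci, and when scaled to cardiomyocyte markers (adjusted p from 0.0576 to 0.858). The difference over both genotypes did not pass under total count scaling (adjusted p = 0.580) or scaling to cardiomyocyte markers (adjusted p = 0.513). Over both genotypes the 10 leukocyte markers all rose after sham (median 1.01), as did 4 of 8 fibroblast markers (median 0.53), while 0 of 14 cardiomyocyte markers passed (median -0.0043). The 4 proliferation markers rose (median 2.02), as did 3 of the 4 atrial markers tested, Sln (3.27), Myl4 (1.75) and Nppa (0.94), and Cfd (2.31), the 1 white adipocyte marker tested, and 2 of 8 endothelial markers fell. Over all genes 4.52% passed higher. The part of these cell markers in the change of Cpt1a was not tested.

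Ucp3 and Ppargc1a moved most in this comparison without passing. Ucp3 stood at 1425 and 1109.9 normalized counts at baseline in PKM2fl/fl and at 1419.6 and 788 in PKM2-/-, and its log2 fold change after sham was -1.31 (adjusted p = 0.0663). Ppargc1a stood at 4261 and 5125 and at 5098 and 5206, and its log2 fold change was 0.87 (adjusted p = 0.0939), with sham values spread from 5487 to 21585. Without PKM2fl/fl MI 3, which enters this comparison only through the shared estimate of the spread, Ucp3 (adjusted p = 0.0382) and Ppargc1b (-0.45, adjusted p = 0.00628) also passed lower and Ppargc1a passed higher (adjusted p = 0.0437), where the share of all genes that passed had grown too, to 3.06% lower and 5.68% higher. The median of the 34 genes was -0.09, beside 0.015 over all genes, with 28 of 34 below 0. The members moved together, so that is not a count of separate observations, and the share of all genes below 0 is not given here.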

How the data were processed

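The authors extracted total RNA from left ventricle (RNeasy), removed rRNA, prepared NEBNext Ultra II libraries and sequenced paired ends. Reads were aligned by the authors to mm10 with HISAT2 and counted per gene with featureCounts. Tool versions, strand and the handling of multimapped reads were not given in the sources used here. The deposited table holds a signal per gene and library, the read count divided by a DESeq2 size factor, called normalized counts in the text. It also holds the authors' own fold changes and p-values for 1 comparison, which were not used.

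Whole reads were recovered from the deposited signal (100.0% of values within 0.1 of a whole number), which gave each library's depth. In the main test limma 3.58.1 (R 4.3.3, trend) was fitted to log2(normalized count + 1) for all 16 libraries in 6 groups, restricted to the 20576 genes whose mean reached 10, with Benjamini-Hochberg adjustment over all of them. A gene passed at an adjusted p under 0.05, and the study's further rule of 2-fold is given where used. Fold changes are on the log2(value + 1) scale. The two-sided p-values and 95% intervals come from this fit, and the code was tested on simulated data. DESeq2 1.42.0 and edgeR 4.0.16 on the recovered reads, other scalings, filters and pseudocounts, a replicate block and leaving out each library served as alternatives. Levels per kilobase used the exon length of each gene's canonical transcript.

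No 2 libraries shared a mouse, and replicate numbers therefore pair no animals. The 34 genes, marker lists and pathway lists were chosen with earlier results of these data known. Of each pathway list, only genes among the 3 with the smallest p after MI are named.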

Additional observations from a re-analysis of the deposited data

How the results depend on the processing

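The 34 calls for MI against sham over both genotypes kept their direction and passed in 884 of 884 recomputed values under all alternatives other than scaling to cardiomyocyte markers. Under that scaling 7 members were higher and 2 lower (median -0.024) over both genotypes, 2 higher and 0 lower (-0.029) in PKM2fl/fl and 7 higher and 3 lower (0.058) in PKM2-/-, beside 85.2% and 88% of all genes higher and 0.34% and 0.768% lower in the 2 genotypes. Fold changes turned positive for Slc27a1 (0.69), Eci2 (0.63), Esrra (0.57), Acot13 (0.44), Cd36 (0.42), Acadl (0.36), Ppargc1b (0.32), Acads (0.31), Slc25a20 (0.30), Echs1 (0.27), Etfa (0.19), Decr1 (0.15), Cpt2 (0.11) and Acot2 (0.0092). The construction of this alternative, which sets the mean of 14 genes that fell to 0, shifts all genes upward. The interaction median was then 0.17, the genotype median after MI 0.081 with 0 members lower, and 0 members passed lower after sham over both genotypes or in PKM2-/-.

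Under total count scaling 0 members were higher after MI in PKM2fl/fl, the PKM2-/- median was -1.41, the interaction median 0.55, and the genotype medians -0.67 at baseline, -0.47 after sham and 0.034 after MI, with 0 members lower after MI. After sham in PKM2-/- 1 member was then higher and 0 lower. Total count scaling without rRNA-related loci gave a PKM2-/- median of -1.57, 0 members lower between genotypes after MI and 0 lower after sham in PKM2-/-. DESeq2 called 1 member lower over all treatments, 4 lower after MI and 1 higher after sham over both genotypes and in PKM2-/-, and edgeR called 2 lower after MI. Fitting the compared groups alone left 0 higher after MI in PKM2fl/fl, 0 lower between genotypes after MI, 2 lower after sham over both genotypes, and 1 higher and 2 lower in PKM2-/-. With no filter on low values 0 were lower after sham in PKM2-/-. For all of these, the cause was not tested. The shares of all genes passing under these alternatives are not set beside the member counts here and below. The counts therefore show only how the members' calls moved with the processing.

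With the replicate block, 1 member was higher after sham over both genotypes, and in PKM2-/- 1 was higher and 0 lower. The block moved no other count of members by over 1.5 times. Same-numbered libraries of different groups had correlations of their deviations from -0.196 to 0.126, so the numbers were not taken to pair the samples.

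Leaving out 1 library at a time gave, for MI in PKM2fl/fl, medians of -1.88 to -1.30 and 0 to 1 members higher. For the genotypes after MI it gave medians of -0.69 to -0.14 and 0 to 27 members lower, and over all treatments 0 to 16 lower. The interaction had medians of -0.47 to -0.0083 and 0 to 7 lower. After sham, 0 to 1 were higher and 1 to 3 lower over both genotypes, and 0 to 1 higher and 0 to 2 lower in PKM2-/-. The upper counts for the genotype and interaction comparisons came without PKM2fl/fl MI 3.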
